A study of Rattus norvegicus with 862 samples.

Results

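The MHC class II genes RT1-Da, RT1-Ba and Cd74 were examined in the hearts of rats given short courses of drugs and other chemicals. They are 3 of the 14217 genes measured, each read from the probe set that the array's annotation assigns to that symbol alone and that has the highest mean over all arrays. The series holds 862 arrays from 840 male Sprague-Dawley (Crl:CD (SD)IGS BR) rats, which were 6 to 8 weeks old when bought: 611 rats were given 1 of 88 compounds and 229 were vehicle controls at dose 0. RNA came from the whole heart of single animals, taken mostly after 1, 3 or 5 days of treatment, and each array gave a log2 level per gene. A profile is 1 compound at 1 dose in 1 vehicle by 1 route, and 95 of 97 profiles had matched controls, that is, rats given the same vehicle by the same route for the same number of days whose RNA was extracted in the same campaign. The profiles without any were 2'-Beta-Fluoro-2',3'-Deoxyadenosine, a nucleoside analog, and a gavage profile of daunorubicin at 2 mg/kg. The conflicting labels of 12 controls kept them out of every comparison, which left 217 control rats.

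Class II molecules present peptides from endosomes to CD4+ T cells. Each is a pair of an alpha and a beta chain. RT1-Da encodes the alpha chain of the rat D molecule, the counterpart of human HLA-DR, and RT1-Ba encodes that of the B molecule, the counterpart of HLA-DQ. Cd74 encodes the invariant chain, which fills the groove of newly made class II molecules and steers them from the endoplasmic reticulum to endosomes, where cathepsins trim it and the DM molecule exchanges the remnant for peptide. Dendritic cells, B cells and macrophages carry class II molecules at rest, and interferon gamma induces them in other cells through the co-activator Ciita. Ciita has no DNA contact of its own and sits on a set of factors (RFX, CREB and NF-Y) bound to the X and Y boxes that class II promoters and the Cd74 promoter share. In the heart, class II molecules lie mainly on resident macrophages and dendritic cells between the muscle fibres.

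The promoter stretches that hold letters of these boxes are shown because the chain genes and Cd74 are known to be driven from them. They were taken from the RefSeq annotation of assembly GRCr8 and are written 5′ to 3′ along each gene's own strand, with matches in capitals. The X box was searched as CC, any base, AG, any 2 bases and AC, with a longer form in which any base and GATG follow, and the Y box as ATTGG, on both strands of the 250 bases before the start of each gene. A Y box on the opposite strand reads CCAAT, and the core and the longer form of the X box overlap. The 3 genes and the beta chain partner of RT1-Da follow.
RT1-Da, chr20:4515317-4515382, plus strand: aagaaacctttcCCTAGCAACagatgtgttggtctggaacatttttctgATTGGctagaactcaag
RT1-Ba, chr20:4577002-4577030, plus strand: gggaattttctgATTGGtctgtcgggttt
Cd74, chr18:56526974-56527033, plus strand: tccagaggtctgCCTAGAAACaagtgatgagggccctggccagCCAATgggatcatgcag
RT1-Db1, chr20:4560201-4560254, minus strand: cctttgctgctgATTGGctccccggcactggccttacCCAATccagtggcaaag

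In RT1-Da the X box letters began 86 bases and the Y box letters 49 bases before the start, and the X box matched the longer form too. In Cd74 the X box core lay 220 bases and a Y box on the opposite strand 189 bases before the start. The RT1-Ba window held a Y box 43 bases before the start and no match to these X box letters, and RT1-Db1 had Y boxes at 80 and 55 bases. Among all 33469 promoter windows, 14.8% held the X box core, 0.0508% the longer form, 34% a Y box and 4.89% both the core and a Y box. A match describes letters in the window and not binding.

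In the 217 control hearts, RT1-Da had a mean level of 9.96 ± 0.336 (SD, log2 scale), with a lowest value of 8.224, a median of 9.939 and a highest of 10.74. RT1-Ba had a mean of 8.81 ± 0.389, running from 7.762 through a median of 8.826 to 9.592. Cd74 had a mean of 12.18 ± 0.202, running from 10.65 through a median of 12.21 to 12.47. Cd74 thus varied least between control rats. Levels of different genes come from different probes and were not set against each other.

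Levels were close to each other between vehicles. RT1-Da averaged 10.0 in 41 rats given corn oil by gavage, 9.89 in 64 given water by gavage, 10.02 in 39 given carboxymethyl cellulose (CMC) by gavage and 9.945 in 22 given saline into a vein. Between corn oil and water by gavage, RT1-Da differed by 0.05 (adjusted p = 0.8988), RT1-Ba by 0.15 (0.6805) and Cd74 by 0.02 (0.928), with 26 and 28 rats in campaigns that held both. Between 52 controls taken on day 1, in the afternoon, and 114 taken on days 3 and 5, in the morning, the differences were -0.07, -0.05 and -0.003 (adjusted p of 0.5839, 0.7909 and 0.9735). None of the 3 genes was called in either comparison, where 0% and 0.0774% of all genes were called.

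Of all arrays, 35 stood apart from the rest, in correlating under 0.95 with the mean array or in holding high levels of liver or fat cell genes. In 22 rats hybridised again in a later campaign, the SD of the difference between the arrays of 1 rat was 0.456 for RT1-Da, 0.322 for RT1-Ba and 0.398 for Cd74. Without the rat of the largest difference (-1.63, -0.77 and -1.60), the SD over the other 21 rats was 0.325, 0.284 and 0.249. The mean of 11 heart muscle genes had a median of 13.3 over the controls, and the hearts also gave signal for 9 fibroblast genes (median 10.95) and 10 endothelial genes (9.39). The medians of the lists for macrophages (7.03), dendritic cells (6.53), B cells (5.49) and liver (5.37) come from other probes, so these values describe the arrays and do not rank the cell types. Changes between whole hearts do not tell fewer cells of a type from less RNA per cell.

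The 3 genes were called lower with a minority of the compounds and higher with none. A gene was called in a profile when its adjusted p from limma was 0.01 or less over all 14217 genes and its level differed at least 1.5-fold from the matched controls. RT1-Da was called lower in 16 of 95 profiles, RT1-Ba in 13 and Cd74 in 3, while over all genes and profiles 0.344% of the tests were called lower and 0.357% higher. None of the 3 was called higher in any profile. The median gene was called lower in 0 profiles, and 32 genes (0.225%) were called lower in as many profiles as RT1-Da or more, 59 (0.415%) in as many as RT1-Ba and 571 (4.02%) in as many as Cd74.

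The changes of RT1-Da ran from -3.17 to 0.75 over the 95 profiles (log2, treated minus control), those of RT1-Ba from -2.38 to 0.71 and those of Cd74 from -0.84 to 0.16. Most profiles lay close to 0, with a median of -0.09 for each gene and negative changes in 61, 58 and 71 profiles. At least 2 of the genes were called lower in 13 profiles and all 3 in doxorubicin, sulindac and vinblastine. The 16 profiles with any call belonged to 16 compounds: 5 corticosteroids, 4 anthracyclines and mitoxantrone, 3 alkylating agents, vinblastine, cyclosporin A and sulindac.

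**Figure D1:**
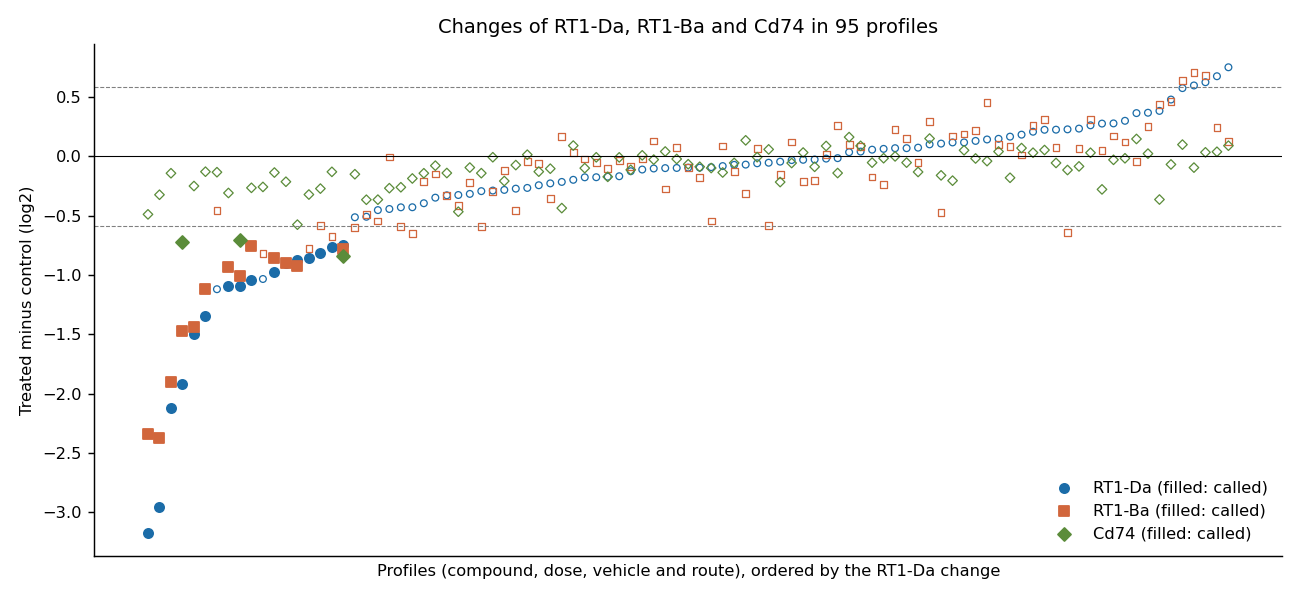
Log2 change of RT1-Da, RT1-Ba and Cd74 against matched controls (vertical axis) in 95 profiles ordered by the change of RT1-Da (horizontal axis), with filled points for called changes and dashed lines at a fold change of 1.5 either way. The called changes lie at the left end and all are negative, and RT1-Da reaches -3.17 where Cd74 goes no lower than -0.84.

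RT1-Ba is read by 4 probe sets, and they disagree. The set with the highest mean was used throughout and was called lower in all 13 of the profiles with at least 2 calls. The next by mean had changes from -0.24 to 0.32 in the same 13 profiles and was called in 0, and the set of rank 3 ran from -0.28 to 0.27 with 0 calls. The set of rank 4 ran from -2.20 to -0.28 and was called lower in 3. Over the 217 control rats the highest set had a Pearson r of 0.66 with RT1-Da but of -0.08 with the next, whose r with that of rank 3 was 0.95. In what follows RT1-Ba means the highest set. RT1-Da and Cd74 have 1 probe set each.

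Among the 16 profiles with a call, the lowest levels of RT1-Da and RT1-Ba were in rats given glucocorticoids. These are steroid drugs that act on the glucocorticoid receptor and damp immune responses. The lowest Cd74 level in the 16 profiles, 10.66, was in a rat given vinblastine. Dexamethasone was given at 1 mg/kg in corn oil by gavage for 3 or 5 days. Its 3 rats of day 3 had RT1-Da levels of 6.95, 7.32 and 8.01 and its 3 rats of day 5 had 5.62, 6.34 and 6.76, against 9.527 to 10.35 in 19 matched controls. All 6 treated rats lay below every control. For dexamethasone no fit against controls of the same animal study alone could be had. RT1-Da fell by 3.17 on the log2 scale (SE 0.184, 95% confidence interval -3.55 to -2.80), that is 9.03-fold, with an adjusted p of 4.055e-13, in a profile where 3.68% of genes were called lower and 2.6% higher.

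RT1-Ba in the same rats was 6.08, 6.73 and 6.97 on day 3 and 6.04, 6.29 and 6.70 on day 5, against 8.157 to 9.241 in the controls. It fell 5.06-fold (SE of the log2 change 0.147, adjusted p = 1.989e-12). Cd74 was 11.55, 11.71 and 12.0 on day 3 and 11.50, 11.74 and 11.85 on day 5, against 11.88 to 12.45. The invariant chain was thus lower than every control in 5 of 6 rats, but its mean change was small (log2 change -0.49, SE 0.0708, adjusted p = 6.649e-06), which misses the fold change needed for a call.

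Fluocinolone Acetonide, a potent fluorinated glucocorticoid, was injected under the skin at 2.5 mg/kg in corn oil for 1, 3 or 5 days. RT1-Da was 7.12, 7.34 and 8.94 on day 1, 5.98, 6.34 and 6.61 on day 3, and 6.19, 6.67 and 7.64 on day 5, against 9.497 to 10.54 in 9 controls. No treated rat reached the lowest control. RT1-Da fell 7.75-fold (log2 change -2.95, SE 0.283, adjusted p = 5.111e-07) and 3.28% of genes were called lower and 2.45% higher. RT1-Ba, at 6.146 to 7.119 with a median of 6.394 against 8.262 to 9.592 in the controls, fell 5.19-fold (SE 0.175, adjusted p = 2.258e-08), also without overlap. The change of Cd74 was -0.32 (adjusted p = 0.03269), with 2 of 9 rats below the lowest control.

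Hydrocortisone, the natural glucocorticoid cortisol, was injected at 56 mg/kg in corn oil and compared with the same 9 controls. RT1-Da was 7.82, 8.80 and 9.31 on day 1, 6.95, 7.39 and 7.44 on day 3, and 6.77, 7.09 and 8.80 on day 5. All 9 rats were below the lowest control, and RT1-Da fell 4.34-fold (log2 change -2.12, SE 0.292, adjusted p = 8.683e-05), with 2% of genes called lower and 0.64% higher. RT1-Ba ran from 6.18 through 6.673 to 8.303, below every control in 8 of 9 rats, and fell 3.73-fold (SE 0.254, adjusted p = 6.712e-05). Cd74 changed by -0.14 (adjusted p = 0.245). Without the day 3 rats the RT1-Da change was -1.86 (adjusted p = 0.01095), just outside the call.

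Fludrocortisone Acetate, a mineralocorticoid with glucocorticoid activity, was given at 125 mg/kg in CMC by gavage to 9 rats. RT1-Da ran from 7.533 through 8.664 to 10.23, with 8 of 9 rats below the 27 controls, which ran from 9.323 to 10.63. It fell 2.54-fold (log2 change -1.34, SE 0.164, adjusted p = 4.813e-07), and 0.753% of genes were called lower and 0.823% higher. RT1-Ba, at 6.786 to 8.988 with a median of 7.762, fell 2.17-fold (SE 0.187, adjusted p = 5.884e-05), with 6 of 9 rats below every control. Without the day 3 rats that change was -0.99 (adjusted p = 0.01036). The change of Cd74 was -0.13 (adjusted p = 0.04364).

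Prednisone, which the body reduces to prednisolone, was given for 1 day at 68 mg/kg in CMC by gavage to 3 rats. Their RT1-Da levels of 9.05, 9.06 and 9.49 were below all 9 controls, which ran from 9.585 to 10.60. RT1-Da fell 1.81-fold (log2 change -0.86, SE 0.164, adjusted p = 0.007578), and 0.267% of genes were called lower and 1.16% higher. RT1-Ba (7.94, 8.00 and 8.25) and Cd74 (11.83, 11.93 and 12.08) were below their controls in 3 of 3 rats too, with changes of -0.78 (adjusted p = 0.06865) and -0.32 (adjusted p = 0.04412). The RT1-Da call was lost in 8 of the 12 fits that left out 1 rat, where its change came no closer to 0 than -0.78, and in the fit without arrays that stand apart (-0.79, adjusted p = 0.06435). In these 3 hearts 16 of 19 interferon response genes were called higher, among them Mx1 by 5.41 and Ifit3 by 4.46, as were 8 of 16 class I presentation genes, among them RT1-S3 by 2.28, Psmb8 by 1.80 and Tap1 by 1.75.

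In 3 further corticosteroid profiles none of the 3 genes was called. Prednisolone at 184 mg/kg in water for 1 day gave RT1-Da levels of 8.32, 8.69 and 9.37 against 9.24 to 10.47 in 9 controls, a change of -1.12 (adjusted p = 0.02201). Cortisone at 206 mg/kg in CMC for 1 day changed RT1-Da by -0.28 (adjusted p = 0.9893). Aldosterone, the natural mineralocorticoid, at 0.065 mg/kg from an implanted mini-pump changed RT1-Da by -0.10, RT1-Ba by -0.27 and Cd74 by 0.04 in 6 rats against 4 controls. The route of 3 of these 4 controls was taken from their titles, since another label of theirs gives a plain subcutaneous route. Over the 8 corticosteroid profiles, RT1-Da was called lower in 5, RT1-Ba in 4 and Cd74 in 0. Doses, days and routes differ between these compounds, and their controls are shared in part, so the values stand side by side.

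**Figure D2:**
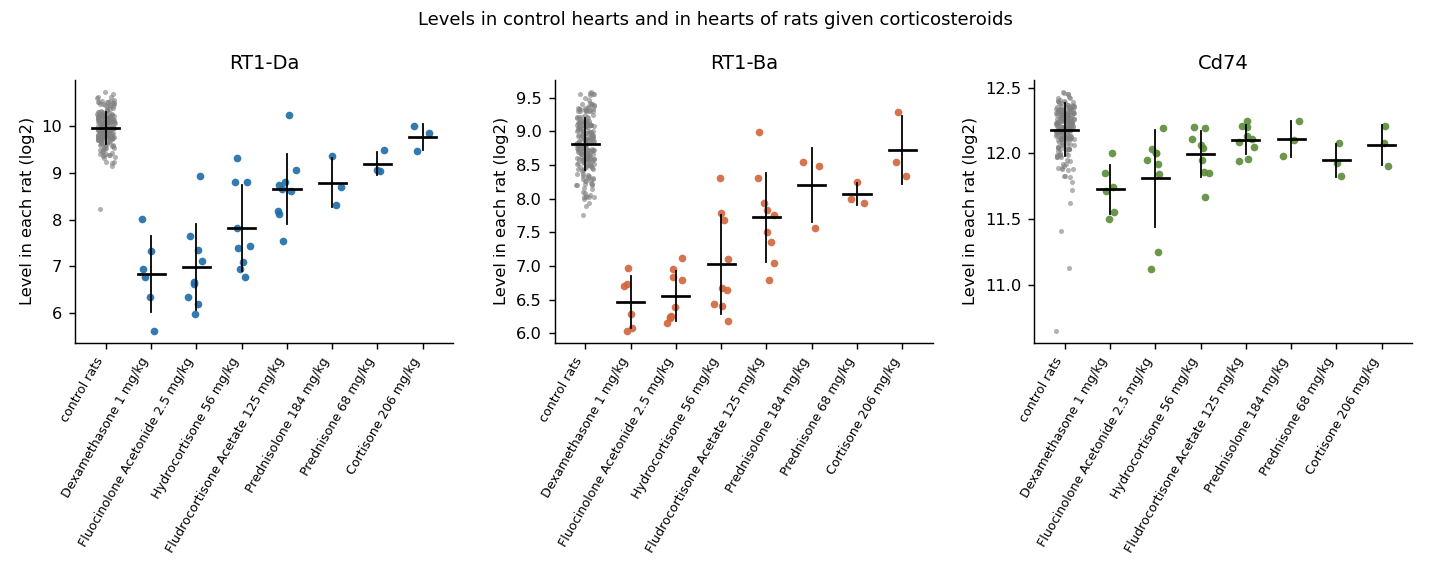
Log2 level of RT1-Da, RT1-Ba and Cd74 (vertical axes) in each of 217 control hearts and in each treated heart of 7 corticosteroid profiles (horizontal axis), with points for rats and bars for the mean ± SD. RT1-Da and RT1-Ba of dexamethasone and fluocinolone rats lie below their matched controls, while Cd74 stays within 11.12 to 12.19 in the fluocinolone rats.

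Macrophage genes were called higher in all 5 of these profiles with a call of any of the 3 genes, and 1 of them lower in 2. With dexamethasone, 9 of 15 macrophage genes were called higher and 1 lower (Aif1, by 0.79 on the log2 scale), and the mean of the list was 7.522 to 8.098 in treated rats against 6.708 to 7.328 in controls. With fluocinolone, 7 macrophage genes were called higher and 1 lower (Aif1, by 0.64), with hydrocortisone 6 and 0, with fludrocortisone 4 and 0, and with prednisone 2 and 0. Neutrophil genes were called higher in 4 of 8 cases with dexamethasone, 3 with fluocinolone, 1 with hydrocortisone and 0 with fludrocortisone and prednisone. Of 10 endothelial genes, 3 were called lower with dexamethasone, 2 with fluocinolone (and 1 higher), 2 with hydrocortisone, 1 with fludrocortisone and 1 with prednisone. Of 13 dendritic cell genes, 3 were called lower and 1 higher with dexamethasone, 2 lower and 1 higher with fluocinolone and 2 lower with hydrocortisone. Among 7 B cell genes 1 was called lower with dexamethasone and with fluocinolone (Fcer2, the low-affinity IgE receptor), and 0 with the others. Of 18 T and NK cell genes, 4 were called lower with dexamethasone and 2 with fluocinolone. From the same list 1 gene was called higher with fludrocortisone and 2 with prednisone, and 0 were called with hydrocortisone.

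Fibroblast genes were called lower in 4 of these 5 profiles. They numbered 7 of 9 with dexamethasone (list mean 8.644 to 9.515 against 10.68 to 11.40), 7 with fluocinolone, 6 with hydrocortisone, 6 with fludrocortisone and 0 with prednisone. Interferon response genes did not follow 1 pattern: 12 of 19 were called lower and 2 higher with dexamethasone, 2 lower and 5 higher with fluocinolone, and 4 higher with fludrocortisone. The part of any of these lists in the class II changes was not tested.

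The anthracyclines, DNA intercalators that trap topoisomerase II and injure heart muscle, and mitoxantrone, an anthracenedione of like action, all came with lower levels of both alpha chains. Each was given in saline into a vein to 9 rats, 3 per day, and compared with the same 22 controls. In these controls RT1-Da had a mean of 9.945 ± 0.387 with a range of 9.23 to 10.74, RT1-Ba a mean of 8.78 ± 0.387 (7.986 to 9.554) and Cd74 a mean of 12.17 ± 0.191 (11.62 to 12.47). Doses differed between the drugs.

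Daunorubicin at 3.25 mg/kg gave RT1-Da levels of 8.53, 8.67 and 9.83 on day 1, 7.89, 7.95 and 8.65 on day 3, and 7.95, 8.24 and 8.34 on day 5. A single rat of day 1 lay within the control range. RT1-Da fell 2.83-fold (log2 change -1.50, SE 0.174, adjusted p = 1.281e-06), and 0.239% of genes were called lower and 0.0774% higher. RT1-Ba, at 6.712 to 7.843, was below every control in 9 of 9 rats and fell 2.70-fold (SE 0.144, adjusted p = 7.013e-08). Cd74, at 11.71 to 12.10, stayed within the control range in all 9 rats, with a change of -0.25 (adjusted p = 0.05092).

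Doxorubicin at 3 mg/kg gave RT1-Da levels of 9.11, 9.34 and 9.46 on day 1, 8.90, 9.03 and 9.14 on day 3, and 7.86, 8.25 and 8.60 on day 5, with 7 of 9 rats below every control. RT1-Da fell 2.13-fold (log2 change -1.09, SE 0.158, adjusted p = 1.296e-05), and 0.682% of genes were called lower and 0.753% higher. RT1-Ba ran from 6.732 through 7.831 to 8.294 and fell 2.01-fold (SE 0.157, adjusted p = 3.731e-05). Cd74 ran from 11.04 through 11.45 to 12.04, below every control in 6 of 9 rats, and fell 1.63-fold (log2 change -0.70, SE 0.0906, adjusted p = 2.433e-06). Doxorubicin was the only profile in this drug class in which Cd74 was called.

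Epirubicin, the epimer of doxorubicin, was given at 2.7 mg/kg. RT1-Da was 8.61, 8.68 and 9.56 on day 1, 7.94, 8.28 and 8.35 on day 3, and 9.95, 9.98 and 10.14 on day 5. The day 3 rats lay below all controls and the day 5 rats in the middle of them. RT1-Da over the 3 days was 1.84-fold lower (log2 change -0.88, SE 0.197, adjusted p = 0.001454), and 1.17% of genes were called lower and 1.53% higher. RT1-Ba, at 6.746 to 9.046 with a median of 7.95, changed by -0.92 (SE 0.201, adjusted p = 0.001065). Without the day 3 rats the changes were -0.35 (adjusted p = 0.2451) and -0.43 (adjusted p = 0.2293), and without the day 1 rats that of RT1-Da was -0.92 (adjusted p = 0.01515). Cd74, at 11.18 to 11.94, was 1.49-fold lower (adjusted p = 2.363e-06), just short of the fold change for a call, and passed it without arrays that stand apart (-0.59).

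Idarubicin at 0.625 mg/kg gave RT1-Da levels of 8.55, 9.95 and 10.01 on day 1, 8.57, 8.64 and 9.08 on day 3, and 8.46, 8.60 and 8.95 on day 5. RT1-Da was 1.96-fold lower (log2 change -0.97, SE 0.174, adjusted p = 0.003007), with 7 of 9 rats below every control and 0.155% of genes called lower and 0% higher. RT1-Ba, at 7.10 to 8.857 with a median of 7.843, changed by -0.86 (SE 0.162, adjusted p = 0.004798) and Cd74 by -0.14 (adjusted p = 0.8531). Both calls could be lost by leaving out 1 rat: RT1-Da lost its call in 4 of 31 such fits and RT1-Ba in 6. Over the 31 fits the changes came no closer to 0 than -0.91 and -0.75, with adjusted p of at most 0.01468 and 0.02199. Without day 3 the changes were -0.79 and -0.73 (adjusted p of 0.2733 and 0.3921), and without day 5 -0.80 and -0.73 (0.4306 and 0.244).

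Mitoxantrone at 2 mg/kg gave RT1-Da levels of 8.71, 9.14 and 9.28 on day 1, 8.45, 8.73 and 9.54 on day 3, and 8.75, 9.01 and 9.69 on day 5. RT1-Da was 1.87-fold lower (SE 0.149, adjusted p = 0.000178), with 6 of 9 rats below every control and 0.521% of genes called lower and 0.542% higher. RT1-Ba, at 7.126 to 8.581 with a median of 7.928, was called lower by 0.90 (adjusted p = 0.0004086), and Cd74 changed by -0.21 (adjusted p = 0.05978). Without day 3 the changes of RT1-Da and RT1-Ba were -0.76 (adjusted p = 0.01374) and -0.83 (0.02291).

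In the hearts of these 5 profiles, 3 or 4 of 5 red blood cell genes were called lower in each, while dendritic cell genes were called in 0 to 1 of 13 cases, macrophage genes higher in 0 to 3 and lower in 0 to 1 of 15, and fibroblast genes lower in 0 to 2 of 9. Interferon response genes were called lower in 3 cases with daunorubicin, 4 with doxorubicin, 1 with epirubicin, 4 with idarubicin and 2 with mitoxantrone. The part of these lists in the class II changes was not tested.

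Where controls of the same animal study were used alone, the direction stayed the same and the number of controls fell. Doxorubicin then changed RT1-Da by -0.99 (adjusted p = 0.007048), RT1-Ba by -0.98 (0.005936) and Cd74 by -0.72 (0.004206), all called. Daunorubicin changed RT1-Da by -2.35 (adjusted p = 0.04135) and RT1-Ba by -1.88 (0.01183), epirubicin by -1.37 (0.06879) and -1.59 (0.0573), and idarubicin by -0.87 (0.7742) and -0.92 (0.5829), none called. Among the other classes, hydrocortisone stayed called in the same way (RT1-Da -2.09, adjusted p = 0.001244), as did ifosfamide, whose controls all came from its own study. No such fit could be had for dexamethasone, fluocinolone, fludrocortisone, prednisone, mitoxantrone, chlorambucil, cyclosporin A or sulindac. In those profiles the compound and the animal study cannot be told apart.

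Alkylating agents, which crosslink DNA, came with lower RT1-Da in 3 of 3 profiles. Cyclophosphamide was given at 25 mg/kg in water by gavage to 6 rats for 3 or 5 days. RT1-Da ran from 8.261 through 9.005 to 9.452 against 9.387 to 10.57 in 19 controls, with 5 of 6 rats below every control. It fell 2.14-fold (log2 change -1.10, SE 0.170, adjusted p = 9.169e-05), and 0.267% of genes were called lower and 1.62% higher. RT1-Ba, at 7.01 to 8.309 with a median of 7.916, fell by 0.93 on the log2 scale (SE 0.179, adjusted p = 0.001084). Cd74 changed by -0.31 (adjusted p = 0.006824), under the fold change for a call. Without the day 5 rats the RT1-Da change was -0.78 (adjusted p = 0.08938) and that of RT1-Ba -0.59 (0.1631), and with controls of the same study alone they were -1.03 (0.4826) and -1.02 (0.5139). In these hearts 4 of 5 red blood cell genes, 1 of 18 T and NK cell genes and 1 of 7 B cell genes were called lower and 3 of 15 macrophage genes higher, and their part in the class II changes was not tested.

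Ifosfamide, an isomer of cyclophosphamide, was given at 143 mg/kg in saline by gavage to 6 rats, with 6 controls. RT1-Da ran from 8.872 through 9.045 to 9.227 against 9.68 to 10.46, with no overlap. It fell 2.06-fold (log2 change -1.04, SE 0.106, adjusted p = 0.0001559), and 0.352% of genes were called lower and 0.253% higher. RT1-Ba ran from 7.744 through 8.294 to 8.445, with 4 of 6 rats below the controls (8.374 to 9.345), and changed by -0.75 (SE 0.125, adjusted p = 0.005911). This last call was lost in 9 of 12 fits that left out 1 rat, with changes from -0.83 to -0.67, and without arrays that stand apart (-0.77, adjusted p = 0.01379). With the rats of day 5 or of day 3 alone, 3 against 3, neither gene was called, at RT1-Da changes of -1.02 (adjusted p = 0.03691) and -1.06 (0.02394). Cd74 changed by -0.26 (adjusted p = 0.1211). Here 3 of 5 red blood cell genes, 2 of 18 T and NK cell genes and 1 of 8 neutrophil genes were called lower, and their part was not tested.

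Chlorambucil, a nitrogen mustard, was given at 4.5 mg/kg in corn oil by gavage and compared with the 19 controls of the dexamethasone rats. Its 6 rats had RT1-Da levels from 8.847 through 9.222 to 9.566, with 5 below every control. RT1-Da fell 1.70-fold (log2 change -0.77, SE 0.112, adjusted p = 0.0007799) in a profile where 0.0703% of genes were called lower and 0.0844% higher. RT1-Ba changed by -0.67 (adjusted p = 0.02379) and Cd74 by -0.13. Without the day 5 rats RT1-Da changed by -0.53 (adjusted p = 0.09887). Chlorambucil moved few other genes, and of the 16 lists counted only the class II chains (RT1-Da) and the interferon response (Rsad2, 1.05 lower on the log2 scale) had a gene called.

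Vinblastine, a vinca alkaloid that breaks down microtubules, was given at 0.3 mg/kg in saline into a vein to 6 rats and compared with 16 controls. RT1-Da was 8.09, 8.42 and 9.06 on day 3 and 6.51, 7.70 and 8.86 on day 5, against 9.379 to 10.74 in the controls. All 6 rats lay below every control, and those of day 5 were spread more widely than those of day 3. RT1-Da fell 3.77-fold (log2 change -1.92, SE 0.250, adjusted p = 8.201e-05), and 0.317% of genes were called lower and 0.45% higher. RT1-Ba was 7.37, 7.83 and 7.84 on day 3 and 6.51, 6.54 and 7.97 on day 5, again without overlap, and fell 2.77-fold (SE 0.211, adjusted p = 0.0002186).

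Cd74 in the vinblastine rats was 11.56, 11.80 and 11.97 on day 3 and 10.66, 10.94 and 11.83 on day 5. It was lower by 0.72 (SE 0.139, adjusted p = 0.003651), and 2 rats of day 5 carried much of this: without the 1st the change was -0.57 (adjusted p = 0.01951), and without the 2nd -0.64 (0.02312). The calls also depended on the days together, since without day 5 the 3 genes changed by -1.55 (adjusted p = 0.0243), -1.19 (0.02137) and -0.45 (0.147), and without day 3 RT1-Ba and Cd74 changed by -1.75 (0.01138) and -0.99 (0.02295). With controls of the same study alone no gene was called (-1.99, -1.53 and -0.44, adjusted p of 0.6545, 0.5055 and 0.996). Vinorelbine at 1.5 mg/kg, a semi-synthetic relative, changed the 3 genes by -0.51 (adjusted p = 0.483), -0.60 (0.4122) and -0.15 (0.8843). In the vinblastine hearts 7 macrophage genes were called higher and 3 red blood cell genes lower.

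Sulindac, a cyclooxygenase inhibitor, had the largest mean fall of Cd74 of the 95 profiles. It was given at 132 mg/kg in corn oil by gavage, and 5 rats were measured against the 19 controls shared with dexamethasone. Cd74 was 11.13, 11.58 and 11.83 on day 3 and 11.13 and 11.30 on day 5, below every control (11.88 to 12.45) in 5 of 5 rats. It fell 1.79-fold (log2 change -0.84, SE 0.0878, adjusted p = 1.376e-07), and 2.05% of genes were called lower and 3.5% higher. RT1-Da was 9.06, 9.28 and 10.49 on day 3 and 8.69 and 8.82 on day 5, so that 1 rat of day 3 lay above the highest control (10.35).

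RT1-Da in the sulindac rats was 1.68-fold lower (log2 change -0.75, SE 0.178, adjusted p = 0.003552). The call was lost without either rat of day 5 (-0.61 and -0.64, adjusted p of 0.03148 and 0.02472) or without 1 of the rats of day 3 (-0.68, adjusted p = 0.01607). RT1-Ba was 8.07, 8.21 and 8.23 on day 3 and 7.58 and 8.05 on day 5 and was 1.72-fold lower (SE 0.147, adjusted p = 0.0003718). Without day 5 the changes of RT1-Da and RT1-Ba were -0.37 (adjusted p = 0.4285) and -0.58 (0.02396), and without day 3 that of RT1-Ba was -1.03 (0.01063). In these hearts 13 of 15 macrophage genes were called higher, with a list mean of 8.119 to 8.778 against 6.708 to 7.328, and 5 of 8 neutrophil genes, among them S100a8 by 5.51. Of 9 fibroblast genes 4 were called lower and 1 higher, and of 10 endothelial genes 3 lower and 2 higher. The part of these lists in the class II changes was not tested. Among 7 anti-inflammatory (NSAID or coxib) profiles sulindac was the only one with a call of RT1-Da, RT1-Ba or Cd74, and RT1-Da ran from -0.75 to 0.58 over them.

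Cyclosporin A, a calcineurin inhibitor, was given at 350 mg/kg in corn oil by gavage and compared with the same 19 controls. RT1-Da ran from 8.897 through 9.152 to 9.532, with 5 of 6 rats below every control, and fell 1.76-fold (log2 change -0.82, SE 0.112, adjusted p = 1.078e-05), with 0.865% of genes called lower and 1.06% higher. RT1-Ba changed by -0.58 (adjusted p = 0.007016), just under the fold change for a call, and Cd74 by -0.27 (adjusted p = 0.007484). RT1-Ba gained the call in 10 of 25 fits without 1 rat, at changes from -0.67 to -0.48. In these hearts 7 of 15 macrophage genes were called higher and 4 of 5 red blood cell genes lower, and their part in the class II changes was not tested. At 300 mg/kg in another vehicle, cyclosporin A changed the 3 genes by -0.51 (adjusted p = 0.04131), -0.49 (0.08204) and -0.36 (0.01532), none called. Tacrolimus at 134 mg/kg, which acts on calcineurin too, changed them by 0.48 (adjusted p = 0.0286), 0.46 (0.1248) and -0.07.

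The remaining classes had no call of RT1-Da, RT1-Ba or Cd74. RT1-Da ran from -1.03 to 0.37 over 8 reactive toxicants, from -0.23 to 0.75 over 7 adrenergic agonist or angiotensin profiles, from -0.33 to 0.26 over 9 psychotropic drugs, from -0.43 to 0.07 over 3 fibrates, from -0.32 to 0.21 over 4 angiotensin receptor blockers, from -0.45 to 0.28 over 4 antihistamines and from -0.43 to 0.63 over 24 further profiles. The lowest of the toxicants, chlorpyrifos at 82 mg/kg, had an SE of 0.474 over 3 rats (adjusted p = 0.4077). The highest changes were those of norepinephrine at 1.75 mg/kg (RT1-Da 0.75, adjusted p = 0.05493, with 4 controls, 3 of them with the route from the title) and valproic acid at 1500 mg/kg (RT1-Ba 0.71, adjusted p = 0.07109), where 1 rat of day 5 had levels of 12.19, 11.18 and 12.73 for RT1-Da, RT1-Ba and Cd74. Day by day, over 202 profiles and days with matched controls, RT1-Da was called lower in 23, RT1-Ba in 16 and Cd74 in 7, against 0.307% of all tests. Outside the 16 profiles, single days gave calls for Cd74 with acrolein on day 5 (-0.68, adjusted p = 0.002148) and for RT1-Da with atenolol on day 3 (-1.16, adjusted p = 0.003343).

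The doses, days and routes of these profiles differ, so the following order by the change of RT1-Da is one of profiles and not of compounds. It ran dexamethasone (-3.17), fluocinolone (-2.95), hydrocortisone (-2.12), vinblastine (-1.92), daunorubicin (-1.50), fludrocortisone (-1.34), cyclophosphamide (-1.10), doxorubicin (-1.09), ifosfamide (-1.04), idarubicin (-0.97), mitoxantrone (-0.90), epirubicin (-0.88), prednisone (-0.86), cyclosporin A (-0.82), chlorambucil (-0.77) and sulindac (-0.75). Each of these neighbours has a 95% confidence interval that overlaps the next. Where 10 pairs of profiles of 1 class and vehicle were tested against each other at their unequal doses, or at unequal doses of imatinib, none of the 3 genes was called in any pair, where 0.626% of all tests were called. Cd74 passed the p threshold but not the fold minimum in 2 of them, being lower with doxorubicin than with idarubicin by a difference of -0.56 (95% confidence interval -0.78 to -0.35, adjusted p = 0.003386) and with epirubicin than with idarubicin by -0.44 (-0.59 to -0.28, adjusted p = 0.0008709).

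Of the 13 profiles with at least 2 calls, 8 had both day 1 and day 3. They are not independent, since the 5 of the anthracyclines and mitoxantrone share their controls, as do fluocinolone and hydrocortisone. Among the day 1 controls given saline into a vein, 1 had an RT1-Da level of 9.23, where the others of 6 ran from 9.754 to 9.957. The change of RT1-Da was nearer 0 on day 1 than on day 3 in all 8 profiles. It went from -1.88 on day 1 to -3.57 on day 3 and -3.41 on day 5 with fluocinolone, from -1.04 to -2.62 and -2.69 with hydrocortisone, from -0.79 to -1.61 and -1.63 with fludrocortisone, from -0.73 to -1.92 and -1.79 with daunorubicin, from -0.44 to -1.06 and -1.73 with doxorubicin, from -0.24 to -1.32 and -1.30 with idarubicin, and from -0.70 to -1.17 and -0.82 with mitoxantrone. With dexamethasone it was -2.56 on day 3 and -3.75 on day 5 (adjusted p of the difference 0.2409), and with cyclophosphamide -0.78 and -1.41. These differences between days were tested as an interaction for each gene of the 13 profiles, and 1 of the 39 tests was called, that of RT1-Da with epirubicin, against 0.154% of the tests of all genes.

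With epirubicin, RT1-Da changed by -0.79 ± 0.246 (SE) on day 1, -1.89 ± 0.235 on day 3 and 0.06 ± 0.235 on day 5 (limma interaction, adjusted p = 0.002258, where 0.767% of genes passed 0.01). RT1-Ba changed by -0.82, -1.86 and -0.08 (adjusted p of the interaction 0.02375), while Cd74 stayed lower on all days at -0.37, -0.80 and -0.54. RT1-Da of the 3 epirubicin rats of day 5 lay within its control range of that day (9.436 to 10.74).

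**Figure D3:**
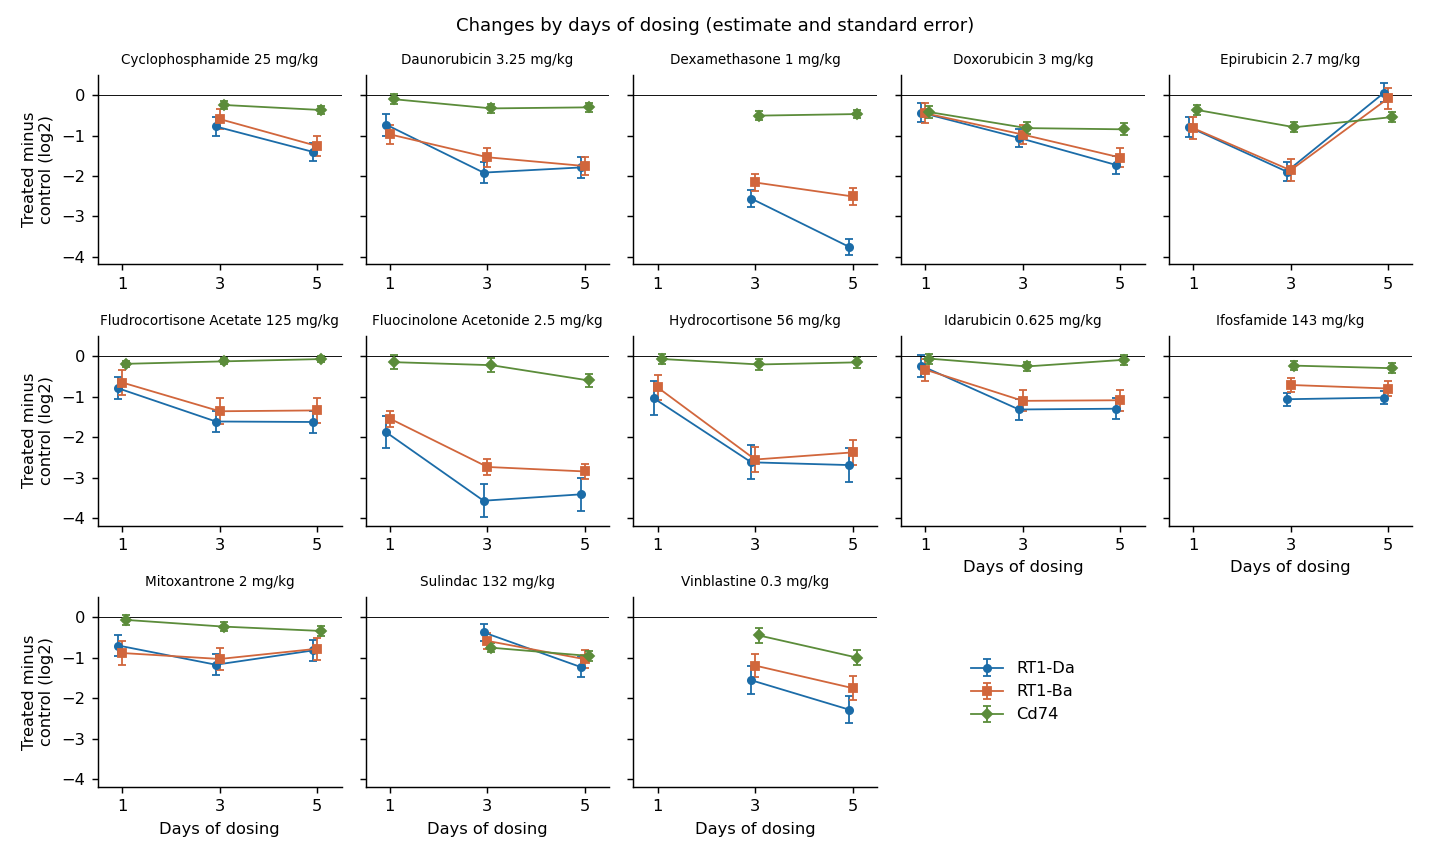
Log2 change against matched controls (vertical axis, points with bars for the SE) of RT1-Da, RT1-Ba and Cd74 after 1, 3 and 5 days (horizontal axis) in the 13 profiles with at least 2 of the genes called. RT1-Da with fluocinolone goes from -1.88 to -3.41, and with epirubicin it returns from -1.89 on day 3 to 0.06 on day 5.

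Cd74 followed the chains only in part. The largest falls of RT1-Da, with dexamethasone and fluocinolone, came with Cd74 changes of -0.49 and -0.32, and the largest fall of Cd74, with sulindac, came with an RT1-Da change of -0.75. The sizes of these changes come from different probe sets, and whether the sets respond alike was not tested. After taking out the mean of each condition and campaign, levels over 822 rats had a Pearson r of 0.71 between RT1-Da and RT1-Ba, 0.49 between RT1-Da and Cd74 and 0.39 between RT1-Ba and Cd74. In 212 control rats alone the values were 0.67, 0.42 and 0.39. These describe rats measured on the same arrays, which share the array's quality and background.

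**Figure D4:**
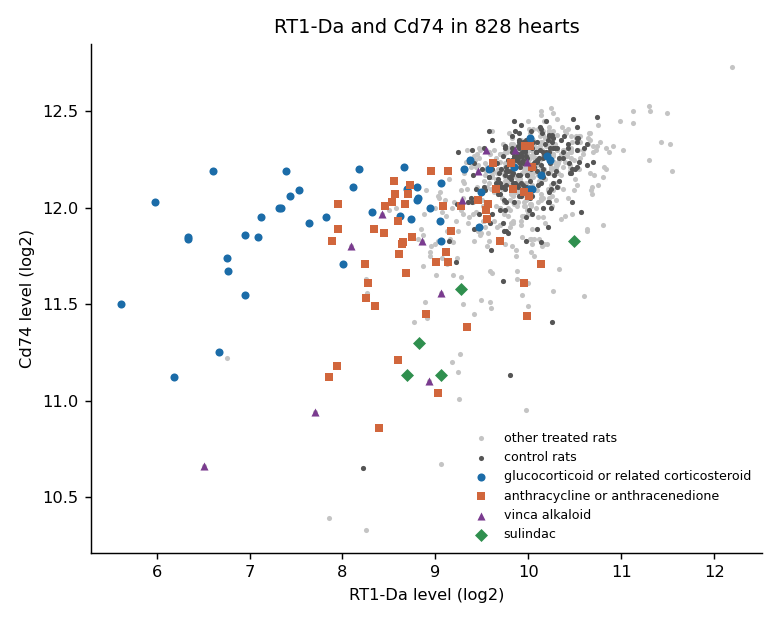
Log2 level of Cd74 against that of RT1-Da in 828 hearts, 1 point per rat, coloured by control, corticosteroid, anthracycline or mitoxantrone, vinca alkaloid, sulindac and other compounds. Corticosteroid rats reach RT1-Da levels under 7 with Cd74 still above 11, and sulindac rats have Cd74 between 11.13 and 11.83 at RT1-Da levels of 8.69 to 10.49.

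RT1-Db1, the beta chain of the D molecule, was called lower in 13 of 95 profiles, 11 of them among the 13 with at least 2 calls of the 3 genes. It changed by -2.39 with dexamethasone, -2.26 with fluocinolone, -1.96 with hydrocortisone, -1.55 with vinblastine, -1.47 with daunorubicin and -1.40 with fludrocortisone. With epirubicin (-0.67, adjusted p = 0.0255) and idarubicin (-0.82, adjusted p = 0.0153) it was not called. RT1-Bb, the beta chain of the B molecule, was called lower in 5 of 95 profiles, 4 of them among the 13, with dexamethasone (-2.27), fluocinolone (-1.78), ifosfamide (-1.83) and doxorubicin (-1.33). These genes too have a further probe set that differs, since that of RT1-Db1 was called lower in 2 of the 13 profiles and that of RT1-Bb in 2, with changes of the latter from -2.98 to 1.36. In the 4 profiles named for RT1-Bb, this further set changed by -0.75 with dexamethasone and by -2.98 with fluocinolone. It rose by 1.36 with ifosfamide and by 0.37 with doxorubicin, and of the 4 only the fluocinolone change was called.

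The arrays measured 11 genes that load and transport class II molecules. Over all genes and profiles 0.344% of the tests were called lower and 0.357% higher, and the median gene was called lower in 0 profiles. Of the 11, Cd74 was called lower in 3 profiles, RT1-DMb in 1 (hydrocortisone, -0.72) and the other 9 in 0. Whether these counts differ from the share over all genes was not tested. RT1-DMa, the partner of RT1-DMb in the peptide exchange molecule, was called higher in 3, among them sulindac (0.93). Ctss, the cathepsin that trims the invariant chain, was called higher in 6 profiles, among them dexamethasone (1.01), fluocinolone (1.00), hydrocortisone (0.74) and sulindac (1.19). Ctsl, a related cathepsin, was called higher with epirubicin (0.59), fluocinolone (0.76) and vinblastine (0.60), and Ctsb, another, with sulindac (0.60). Ifi30, the lysosomal thiol reductase, Lgmn, and the ubiquitin ligases Marchf1 and Marchf8, which remove class II molecules from the surface, were called in 0 profiles.

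Of 15 genes that control class II transcription, none was called lower in any profile, and the median gene of all was called lower in 0 profiles too. Over all genes and profiles 0.344% of the tests were called lower and 0.357% higher. Whether the probe sets of the 15 genes follow their transcripts in heart was not tested. Ciita ran from -0.38 to 0.31 over the 95 profiles with 0 calls, and was -0.17 with dexamethasone (adjusted p = 0.25), 0.04 with fluocinolone (0.823) and -0.33 with sulindac (0.0186). Rfx5, Rfxap, Rfxank, Nfya, Nfyb, Nfyc and Creb1, which encode the box-binding factors, had 0 calls too. On the interferon gamma side, Ifng had 0 calls, while Ifngr1, a chain of its receptor, was called higher in 7 profiles, among them dexamethasone (0.75), fluocinolone (0.59), cyclophosphamide (0.59) and sulindac (0.85). Jak2, the kinase on that receptor, was called higher in 3, among them sulindac (1.57) and dexamethasone (0.74), and Irf1 in 3, among them sulindac (0.83) and prednisone (0.80).

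**Figure D5:**
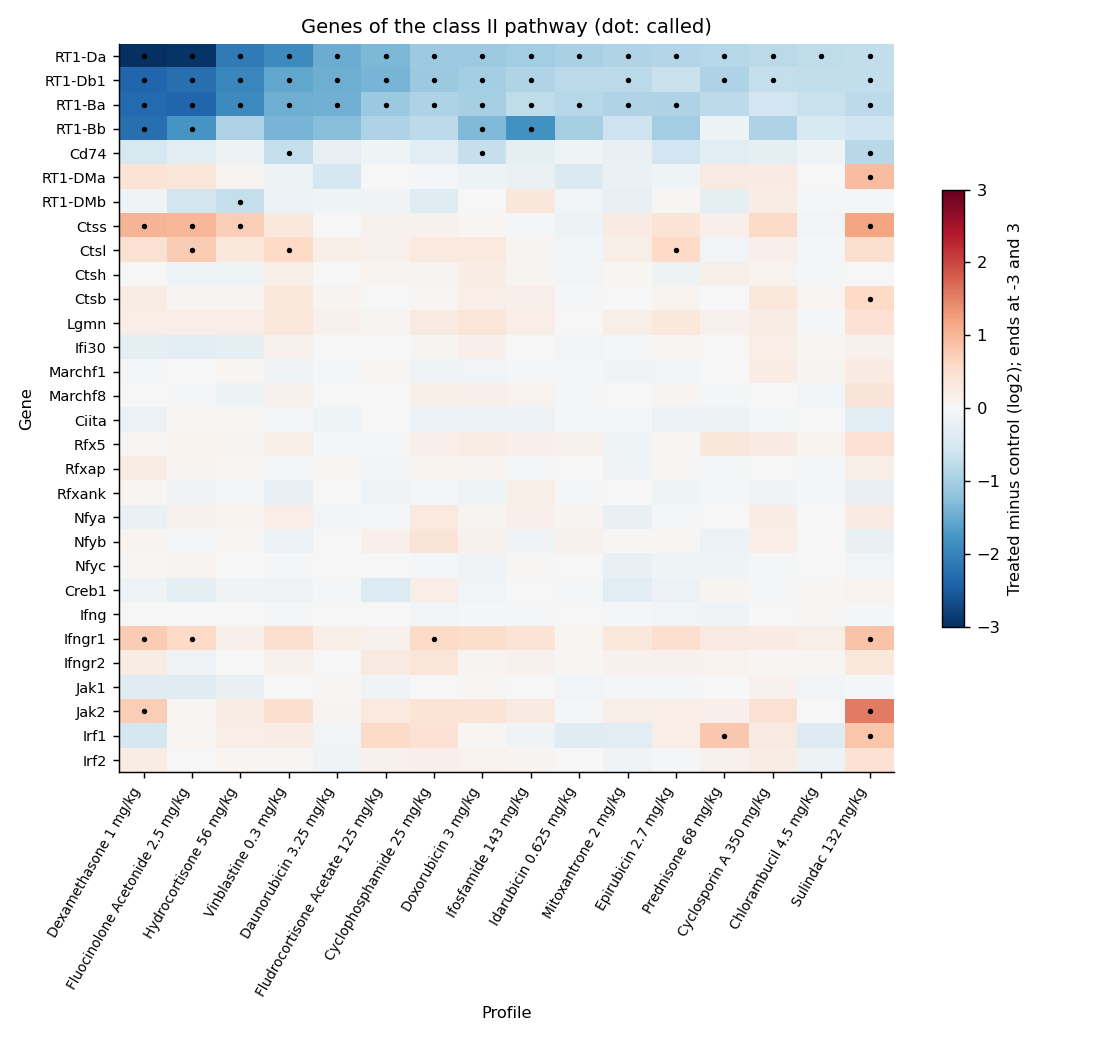
Log2 change against matched controls (colour, with its ends at -3 and 3) of 30 class II pathway genes (rows) in the 16 profiles with any of the 3 genes called (columns), with a dot for each called change. Blue cells with dots lie in the rows of RT1-Da, RT1-Ba, RT1-Db1, RT1-Bb, Cd74 and RT1-DMb, and the transcription rows hold no lower call.

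The 16 profiles were chosen by a call of any of the 3 genes, so the counts of marker lists over them only describe these hearts. Endothelial genes had a lower call in 8 profiles, with at most 3 of 10 genes, and a higher call in 2. Interferon response genes had a lower call in 10 and a higher call in 9. Dendritic cell genes had a lower call in 4 profiles, with at most 3 of 13 genes, and a higher call in 4. B cell genes had a lower call in 7, with at most 1 of 7. T and NK cell genes had a lower call in 4, with at most 4 of 18 genes, and a higher call in 3. Neutrophil genes had a lower call in 2 and a higher call in 6. Macrophage genes had a higher call in 13 profiles and a lower call in 4. Fibroblast genes had a lower call in 6 and a higher call in 2, and red blood cell genes a lower call in 10. The part of these lists in the class II changes was not tested. Heart muscle genes had a higher call in 9 profiles and a lower call in 2, with at most 2 of 11 called in any of the 16 profiles. Liver genes had a higher call in 1 profile, with 1 of 12 genes.

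The genes whose levels were most like the mean of the 3 genes were sought over the deviations of 822 rats from the mean of their own condition and campaign. They were RT1-Db1 (r = 0.86), Coro1a (0.52), which encodes an actin-binding protein of blood cells, Ppa1, Csnk2b, Psmb9 and Cox14 (0.47 each), B2m (0.46), the light chain of class I molecules, Psme1 and Ap3m1 (0.46 each) and Aprt (0.45), where the median gene had r = 0.075. In 212 control rats the list was RT1-Db1 (0.86), Coro1a (0.59), Mrps18b, Psmb9 and Cxcl9 (0.55 each), Psmb10 (0.54), B2m and Snrpb (0.53 each), LOC100910973 and Cox14 (0.52 each), with a median of 0.097. Of these lists, 4 of 10 genes (40%) and 3 of 10 (30%) lie on chromosome 20, the chromosome of RT1-Da and RT1-Ba, which holds 2.81% of the genes with a position.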

How the data were processed

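Total RNA of rat hearts was hybridised to Affymetrix RG230_2.0 arrays. The deposited values are log2 levels per probe set, which per the labels the authors computed with RMA (background correction, quantile normalization and summary over probes), steps that compress differences of dim probe sets. They were used as deposited (31099 probe sets, array medians 5.95 to 6.385). The deposited columns hold no counts, so precision is set by the number of arrays.

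Of the probe sets, 20826 have 1 symbol, 436 several and 9780 none, and a gene was read from its probe set with the highest mean. Campaigns were split where RNA extraction paused over 30 days (5 campaigns). Of 22 rats with 2 arrays the earlier was used. Each profile was fitted against its matched controls with limma 3.58.1 (lmFit, eBayes, R 4.3.3), with days and campaign as 1 factor, and p-values were adjusted (Benjamini-Hochberg) over 14217 genes. Fits were tested on simulated data. The named genes are the 3 members in profiles with at least 2 calls, list genes called there, and the 10 genes most like their mean, and single-call profiles were added after values were seen. The members and lists were chosen with earlier results of these data known. Alternatives covered controls, batches, probe sets, normalization, test, threshold, days and single rats.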

Additional observations from a re-analysis of the deposited data

Results flagged for a closer look

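A control was far from the others of its vehicle, day and campaign in 5 of 48 tests of 1 gene in 1 group, which fell in 4 of 16 groups, and chance flags about 1 in 20 tests. RT1-Da was 9.23 in 1 control given saline into a vein for 1 day, where the others of 6 ran from 9.754 to 9.957. RT1-Da was 8.224 in 1 control given water by gavage for 5 days, where the others of 9 ran from 9.354 to 10.26, and in the same group Cd74 was 10.65 in 1 control against 11.89 to 12.37. RT1-Ba was 8.26 in 1 control given CMC/SDS/Povidone for 5 days, where the others of 6 ran from 8.888 to 9.129. Cd74 was 11.13 in 1 control given CMC for 3 days, where the others of 6 ran from 12.17 to 12.39. The CMC array and those of the water group at 8.224 and 10.65 are among the 35 that stand apart.

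The change of RT1-Da with epirubicin differed between days 1, 3 and 5, with an adjusted p of 0.002258 from limma's interaction over all genes.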

How the results depend on the processing

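Controls of the same study alone could be had for 51 profiles, 8 of the 16 with a call among them and 8 not, and left 3 called for RT1-Da, 3 for RT1-Ba, 1 for Cd74 and 1 for all 3 genes. With the next probe set by mean, RT1-Ba was called in 0 profiles and all 3 genes in 0, and RT1-Ba turned to 0.14 with fludrocortisone, 0.26 with fluocinolone, 0.32 with hydrocortisone, 0.0328 with idarubicin, 0.0455 with vinblastine, 0.125 with chlorambucil and 0.0333 with prednisone. At an adjusted p of 0.05 with no fold minimum, Cd74 was called in 13 profiles and all 3 genes in 9, and calls higher came for RT1-Ba with phenytoin (0.68) and for RT1-Da with rofecoxib (0.58) and tacrolimus (0.48). The methods' t-test lost 4 calls (idarubicin RT1-Ba, ifosfamide RT1-Ba, prednisone RT1-Da and vinblastine Cd74), and study as a random block lost idarubicin RT1-Da and RT1-Ba, prednisone RT1-Da and vinblastine Cd74. Without arrays that stand apart, ifosfamide RT1-Ba, prednisone RT1-Da and vinblastine Cd74 were lost. Controls of every campaign added calls for cyclosporin A RT1-Ba and prednisolone RT1-Da (both lower), norepinephrine RT1-Da (0.85 higher, adjusted p = 0.002946) and valproic acid RT1-Ba (0.72 higher, 0.009996), and RT1-Da with rofecoxib was called higher with the hybridisation batch as a random block (0.59) and after quantile normalization anew (0.60). Of 1191 fits that left out 1 rat, 1142 kept their call or lack of one, 32 lost a call, 17 gained one and 0 changed direction. The cause of these changes was not tested, apart from the fewer samples or other probes that a setting uses by its construction. No paired analysis was possible because the labels give no replicate numbers that groups share.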

Other observations

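The 12 controls whose labels conflict had RT1-Da levels from 9.754 through a median of 10.03 to 11.07, RT1-Ba levels from 7.995 through 8.806 to 9.969 and Cd74 levels from 12.08 through 12.2 to 12.53.

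The probe set of RT1-Bb that is lower in mean had levels from 4.109 through a median of 4.647 to 9.933 in the 217 control rats, with a widest gap from 5.531 to 7.157 that left 133 rats below and 84 above. Over these rats it had a Pearson r of -0.74 with the other RT1-Bb probe set and of 0.88 with the RT1-Db1 probe set that is lower in mean.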
